A study of Mus musculus with 8 samples.

Results

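The genes that encode the CD3 chains (Cd3d, Cd3e, Cd3g and Cd247) and the T cell coreceptors (Cd4, Cd8a and Cd8b1) were examined in pericytes and smooth muscle cells (SMCs) sorted from mouse skeletal muscle. They were chosen by symbol, and all 7 were found among the 37979 genes measured. The study compared pericytes (PDGFRβ+tdTomato- cells) with SMCs (PDGFRβ+tdTomato+ cells) to find genes enriched in muscle pericytes. Both populations came from the hindlimb muscles of Ai14+/-;SM22α-Cre+ mice aged 3 to 4 months, in which Cre under the SM22α promoter turns on the red reporter tdTomato for good. The study used 18 mice of both sexes in all its experiments, and the number behind each library is not given in the sources used here. There were 4 bulk RNA-seq libraries of each population, numbered 1 to 4, each from about 60000 cells combined from multiple sorts, and all were labelled as 1 batch. Because the reporter follows the SM22α promoter, a PDGFRβ+ pericyte with a history of that promoter would be sorted as an SMC. Endothelial cells (CD31), blood-lineage cells (CD45) and dead cells (high DAPI) were gated out before either population was collected.

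The CD3 δ, ε, γ and ζ chains carry no antigen-binding part of their own. They assemble with the T cell receptor at the surface and pass its signal into the cell through tyrosine motifs (ITAMs) in their tails. CD4 and CD8 bind MHC class II and class I molecules, respectively, and bring the kinase LCK to the receptor, and mature helper and cytotoxic T cells are told apart by which of them they carry. CD3 genes are textbook markers of T cells, whereas in mice Cd4 is also expressed by some dendritic cells and Cd8a, as a homodimer, by some dendritic cells and intestinal lymphocytes.

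All 4 CD3 chain genes and both CD8 genes were higher in pericytes than in SMCs, by 22.8-fold (Cd247) to 113-fold (Cd8b1) in mean FPKM (fragments counted for a gene, scaled to its transcript length and to library size). Cd4 had a 4.53-fold higher mean in pericytes, its groups overlapped, and it did not pass the test. A gene was called where limma gave a Benjamini-Hochberg q value below 0.05 and a change above 2 in log2(FPKM + 1). By that rule 6 of the 7 genes were called higher in pericytes, against 3.24% of the 27414 genes tested. The same 6 genes had every pericyte library above every SMC library, which held for 12.1% of the genes tested. In bulk libraries, fewer cells of a type and less RNA per cell cannot be told apart.

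**Figure D1:**
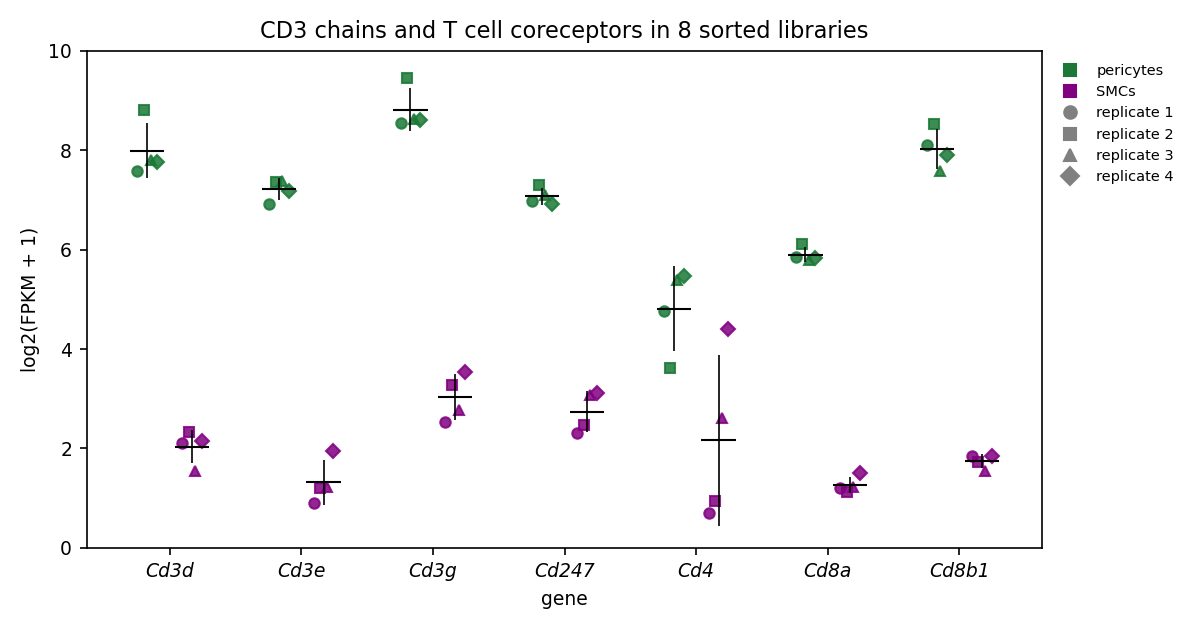
Level of each gene on the log2(FPKM + 1) scale in the 4 pericyte and the 4 SMC libraries, with a symbol for each replicate, the group mean as a horizontal line and the SD as a vertical line. All genes but Cd4 form separate groups, and SMC replicate 4 lies among the pericyte values of Cd4.

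Cd3g, Cd3d and Cd3e lie together. In the GENCODE annotation of NCBI Build 37, Cd3g (chr9:44777655-44788514, minus strand) and Cd3d (chr9:44789876-44795135, plus strand) are divergent genes whose starts are 1362 bases apart. Cd3e (chr9:44806826-44817673, minus strand) follows, and the 3 genes span 40019 bases. Cd247 is on another chromosome (chr1:167718812-167807407, plus strand). Cd8b1 (chr6:71272830-71287471) and Cd8a (chr6:71323421-71329165) lie in the same direction on the plus strand within 56336 bases, and Cd4 is elsewhere on that chromosome (chr6:124814710-124838239, minus strand). Since genes that moved together share these loci, the 250 bases upstream of each start are shown for the 5 genes with an entry in the RefSeq promoter table (GRCm38.p6): Cd3g at chr9:44980432-44980681 (minus strand), Cd3d at chr9:44981536-44981785 (plus), Cd3e at chr9:45009612-45009861 (minus), Cd247 at chr1:165788431-165788680 (plus) and Cd8a at chr6:71373177-71373426 (plus). Each is written 5′ to 3′ on the strand of its gene. Capitals mark CACCTG, an E box, and GGAAGT, a form of ETS factor site, in either orientation. Shorter or other forms of these sites were not searched for.
Cd3g: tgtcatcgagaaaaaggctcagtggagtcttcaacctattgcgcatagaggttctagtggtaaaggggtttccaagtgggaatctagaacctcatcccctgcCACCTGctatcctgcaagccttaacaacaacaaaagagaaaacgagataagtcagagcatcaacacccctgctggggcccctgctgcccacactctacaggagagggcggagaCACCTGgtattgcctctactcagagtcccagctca
Cd3d: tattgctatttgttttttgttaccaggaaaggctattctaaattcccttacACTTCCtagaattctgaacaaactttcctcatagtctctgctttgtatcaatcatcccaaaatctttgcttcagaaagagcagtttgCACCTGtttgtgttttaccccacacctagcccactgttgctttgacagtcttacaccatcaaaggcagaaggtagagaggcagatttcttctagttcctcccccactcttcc
Cd3e: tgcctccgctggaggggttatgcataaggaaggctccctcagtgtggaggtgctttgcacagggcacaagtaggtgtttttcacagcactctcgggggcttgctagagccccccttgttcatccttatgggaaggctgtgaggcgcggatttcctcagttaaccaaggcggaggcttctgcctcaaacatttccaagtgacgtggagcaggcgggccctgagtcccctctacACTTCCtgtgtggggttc
Cd247: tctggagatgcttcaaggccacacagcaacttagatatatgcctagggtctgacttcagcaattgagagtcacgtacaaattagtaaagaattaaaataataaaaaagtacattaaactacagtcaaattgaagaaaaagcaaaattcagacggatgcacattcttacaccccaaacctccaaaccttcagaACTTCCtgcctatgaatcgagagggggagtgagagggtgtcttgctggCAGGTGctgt
Cd8a: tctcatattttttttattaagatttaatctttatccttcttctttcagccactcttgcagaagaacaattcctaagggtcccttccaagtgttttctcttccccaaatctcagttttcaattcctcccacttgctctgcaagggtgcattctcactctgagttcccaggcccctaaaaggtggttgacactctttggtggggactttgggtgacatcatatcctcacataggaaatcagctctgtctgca

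The E box letters were found at 2 places upstream of Cd3g (first base 148 and 35 bases before the start) and at 1 place upstream of Cd3d (112 bases) and of Cd247 (10 bases). The ETS letters were found at 1 place upstream of Cd3d (199 bases), Cd3e (18 bases) and Cd247 (58 bases). Neither set of letters was in the window of Cd8a. Over the same 250 bases of all 32851 promoters in the table, 17.2% held the E box letters and 19.7% the ETS letters. The letters TGTGGT (a RUNX core) were in none of the 5 windows, against 14% of all promoters. The letters TATAAA (the core promoter box bound by TBP) were in none of the 5 windows, against 12.4% of all promoters. The motifs to mark were settled after the sequences had been seen, and a match describes the letters alone.

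Cd3g, the γ chain, had the highest mean FPKM of the 7 genes in both populations, although in SMCs Cd247 was above it in replicate 3 and Cd4 in replicate 4. Its FPKM in pericyte replicates 1 to 4 were 373, 701, 395 and 388, and in SMC replicates 1 to 4 they were 4.78, 8.74, 5.87 and 10.6. Pericyte replicate 2 stood above the other 3 pericyte libraries, and the lowest pericyte library was 35.2 times the highest SMC library. The mean was 464 ± 158 FPKM in pericytes and 7.49 ± 2.65 FPKM in SMCs (SD, n = 4 each), a log2 fold change of 5.78 (SE 0.29, limma with Benjamini-Hochberg adjustment, q = 3.0e-05).

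Cd3d, the δ chain on the other side of that shared start region, had 191, 446, 222 and 217 FPKM in pericytes and 3.34, 4.05, 1.93 and 3.42 FPKM in SMCs. Replicate 2 was again the highest pericyte library, and the lowest pericyte library was 47.1 times the highest SMC library. The mean was 269 ± 119 against 3.18 ± 0.897 FPKM (SD, n = 4 each), and the log2 fold change was 5.95 (SE 0.30, limma q = 3.0e-05).

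Cd3e, the ε chain that pairs with both γ and δ, had 119, 164, 166 and 144 FPKM in pericytes. In SMCs it had 0.857, 1.31, 1.34 and 2.86 FPKM. Its pericyte libraries were closer together than those of Cd3g and Cd3d, and SMC replicate 4 was the highest SMC library. The log2 fold change was 5.89 (SE 0.23, limma q = 1.3e-05), and the lowest pericyte library was 41.7 times the highest SMC library.

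Cd247, the ζ chain with the most ITAMs, had 125, 157, 137 and 119 FPKM in pericytes and 3.97, 4.51, 7.46 and 7.61 FPKM in SMCs. The groups did not overlap, although this gene had the smallest change of the CD3 chains. The mean was 134 ± 16.6 against 5.89 ± 1.92 FPKM (SD, n = 4 each), and the log2 fold change was 4.33 (SE 0.21, limma q = 2.6e-05). Of the 5372 exon bases of Cd247, 3005 are also exon bases of Pou2f1 on the opposite strand, and 206 are shared with Gm16565. Whether reads were counted by strand is not given in the sources used here, so reads from these genes cannot be told apart. Pou2f1, an octamer-binding transcription factor, had 5.59 to 8.94 FPKM in pericytes and 2.71 to 4.40 FPKM in SMCs, beside 3.97 to 7.61 FPKM for Cd247 in SMCs.

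Cd8b1, the β chain of CD8, had 274, 368, 190 and 237 FPKM in pericytes and 2.61, 2.33, 1.90 and 2.61 FPKM in SMCs. It had the largest log2 fold change of the 7 genes, 6.28 (SE 0.20, limma with Benjamini-Hochberg adjustment, q = 5.1e-06). The mean was 267 ± 75.3 against 2.36 ± 0.335 FPKM (SD, n = 4 each), and the lowest pericyte library was 72.7 times the highest SMC library.

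Cd8a, the α chain, had 56.7, 68.6, 54.5 and 55.8 FPKM in pericytes and 1.31, 1.17, 1.32 and 1.82 FPKM in SMCs. The groups did not overlap, and on the log2 scale the pericyte replicates varied less (SD 0.15) than those of any other member. The mean was 58.9 ± 6.51 against 1.41 ± 0.286 FPKM (SD, n = 4 each). The log2 fold change was 4.64 (SE 0.11, limma q = 2.0e-06).

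Cd4 varied more among the replicates of each population than any other member. It had 26.3, 11.2, 40.8 and 43.5 FPKM in pericytes and 0.634, 0.914, 5.09 and 20.2 FPKM in SMCs. The SMC libraries spanned 31.9-fold, and SMC replicate 4 was above pericyte replicate 2, so that the groups overlapped. The mean was 30.4 ± 14.9 against 6.72 ± 9.24 FPKM (SD, n = 4 each). The log2 fold change was 2.65 (SE 0.88, 95% interval 0.59 to 4.70), and the q value from limma with Benjamini-Hochberg adjustment was 0.0747, which missed the threshold. Without SMC replicate 4 the log2 fold change was 3.39 (q = 0.0148) and Cd4 was called. It was also called with a filter at 1 FPKM in 4 libraries (q = 0.0178) and with replicates 1 and 2 against 3 and 4 as a covariate (q = 0.0106), both with the same log2 fold change of 2.65. A block for replicate number in limma also called it (2.65, q = 0.0317), although same-numbered libraries are not said to share animals. Replicates 1 and 2 alone gave 3.37 (q = 0.0390) and replicates 3 and 4 alone 1.92 (q = 0.146), a split added after the spread of Cd4 was seen.

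The high Cd4 values of SMC replicates 3 and 4 were set beside markers of other cells that could carry it. SMC replicate 4 held the highest SMC value for 9 of 10 macrophage markers, 6 of 10 dendritic cell markers, 8 of 8 pericyte markers, 8 of 8 SMC markers and 7 of 8 endothelial markers. The same held for 4 of 10 genes of the CD4 helper lineage and 12 of 25 genes of proximal T cell receptor signalling. It held for 2 of 3 receptor constant genes, 3 of 10 CD8 cytotoxic lineage genes, 5 of 10 NK cell genes and 2 of 10 B cell markers. Fibroblast markers had 3 of 8, other ITAM adaptors 2 of 5 and thymocyte genes 0 of 7. Replicates 3 and 4 were both above replicates 1 and 2 for 5 macrophage, 4 dendritic cell, 8 pericyte, 8 SMC and 7 endothelial markers. The same held for 2 helper lineage genes and 7 receptor signalling genes. The share of all genes with these patterns is not given, so the counts cannot be read as particular to any list. Csf1r, a macrophage growth factor receptor, had 12.6, 13.5, 36.99 and 68.3 FPKM in SMCs, whereas Lyz2, lysozyme, had 1233, 1138, 778 and 1317 FPKM. Siglech, a marker of plasmacytoid dendritic cells, had 4.24, 4.08, 6.91 and 18.4 FPKM, whereas Batf3, a dendritic cell factor, had 5.61, 5.09, 2.52 and 3.70 FPKM and Bst2, a surface antigen of many cell types, had 95.8, 92.8, 104.2 and 144 FPKM. In pericytes, where Cd4 was lowest in replicate 2, so were 5 of 10 macrophage, 5 of 10 dendritic cell and 5 of 8 pericyte markers and 13 of 25 receptor signalling genes. So were 3 of 8 SMC and 4 of 8 endothelial markers and 3 of 10 helper lineage genes, again without the share of all genes. Csf1r was lowest in that replicate (11.4, 4.49, 32.4 and 26.6 FPKM), and Siglech was not (80.2, 91.8, 103 and 142 FPKM). The 10 macrophage markers summed to 1336, 1248, 926 and 1531 FPKM in SMCs and to 775 to 1756 FPKM in pericytes, and only Mrc1 among them was called (higher in SMCs). The 10 dendritic cell markers summed to 142, 135, 134 and 211 FPKM in SMCs and to 265 to 545 FPKM in pericytes. Of these markers, 5 were called higher in pericytes, against 3.24% of all genes tested. None of either list was at 0 in all libraries. The 8 pericyte markers (Pdgfrb, Rgs5 and others) summed to 79.2, 93.9, 238 and 339 FPKM in SMCs, the SMC markers (highest mean Acta2, smooth muscle actin) to 1775, 2044, 3427 and 5713 FPKM, and the endothelial markers to 297, 428, 791 and 981 FPKM. All 3 lists were highest in replicates 3 and 4. Their part in the Cd4 values was not tested.

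**Figure D2:**
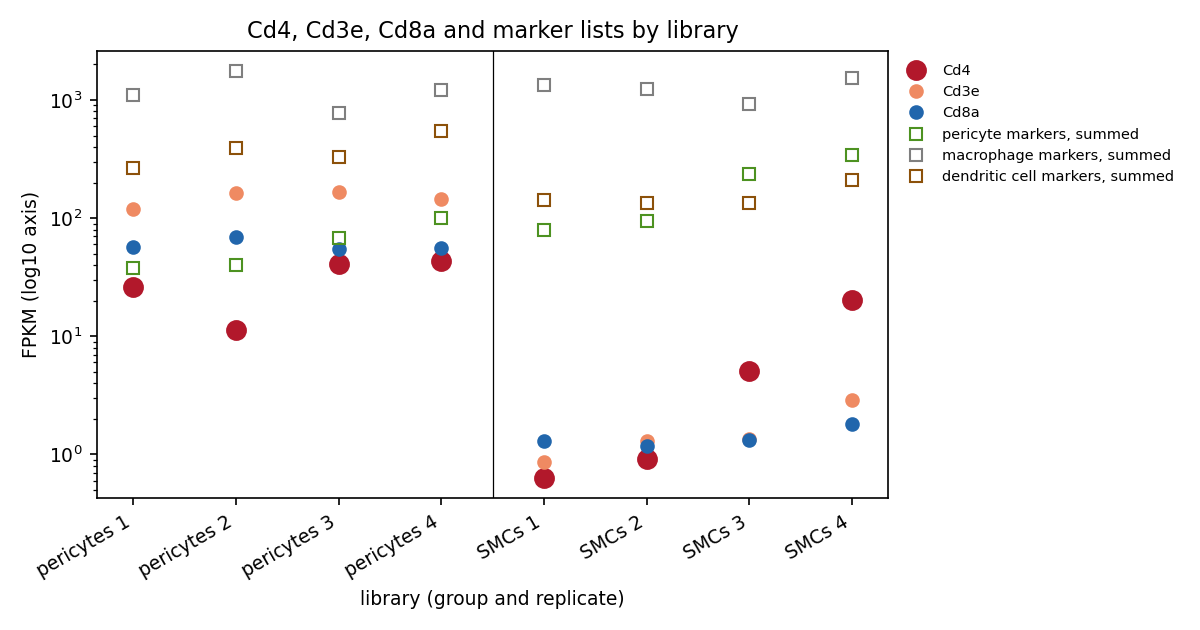
FPKM on a log10 axis in each library for Cd4, Cd3e and Cd8a (filled circles) and for the summed pericyte, macrophage and dendritic cell markers (open squares). In SMCs Cd4 lies between 0.634 and 20.2 FPKM, and Cd8a between 1.17 and 1.82 FPKM.

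FPKM are scaled to transcript length, so levels of different genes were compared within a library on the log2(FPKM + 1) scale. In pericytes the order of mean level was Cd3g, Cd8b1, Cd3d, Cd3e, Cd247, Cd8a and Cd4. Cd8b1 and Cd3d did not differ beyond their spread (difference 0.04 ± 0.37, SD, higher in 2 of 4 libraries), nor did Cd3e and Cd247 (0.14 ± 0.17, SD, 3 of 4). Cd4 was below Cd8a in 4 of 4 pericyte libraries, by 1.09 ± 1.002 (SD). Among all 37979 genes ranked by mean FPKM in pericytes, Cd3g stood at 305, Cd3d at 531, Cd8b1 at 539 and Cd4 at 3543. In SMCs the order was Cd3g, Cd247, Cd4, Cd3d, Cd8b1, Cd3e and Cd8a, with ranks from 7427 (Cd3g) to 12333 (Cd8a). Of the 6 neighbouring pairs in that order, only Cd3d was above the next gene, Cd8b1, in 4 of 4 libraries (0.29 ± 0.24, SD).

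Ratios between members show whether the chains kept the same proportions in both populations. Each of 6 ratios was set between the populations with an exact permutation test over the 8 libraries (two-sided), for which 0.0286 is the smallest p that 4 against 4 can give. None passed 0.05 after Benjamini-Hochberg adjustment over the 6 ratios. With Cd4 over the sum of Cd8a and Cd8b1 in place of Cd4 over Cd8a, the plain ratios were 0.0794, 0.0258, 0.167 and 0.148 in pericytes and 0.162, 0.261, 1.58 and 4.56 in SMCs, so that pericyte replicate 3 was just above SMC replicate 1. With FPKM + 0.1 the groups no longer overlapped and the log2 difference was -3.19. In that set of 6, 4 ratios then stood at the smallest p that the test can give (this one, Cd4 to Cd8b1, Cd8a to Cd8b1 and Cd247 to Cd3e), and all 4 passed with an adjusted exact permutation p of 0.0429. On plain ratios this one had an exact permutation p of 0.0571 (adjusted p = 0.0686), and none of the 6 passed. Ratios are printed as plain FPKM ratios, and differences and tests used FPKM + 0.1.

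The ratio of Cd4 to Cd8a was 0.463, 0.164, 0.748 and 0.779 in pericytes, below 1 in every library. In SMCs it was 0.484, 0.782, 3.85 and 11.1, so that Cd4 exceeded Cd8a in replicates 3 and 4 only. The groups overlapped, and the log2 difference was -2.12 (4.36-fold higher in SMCs, exact permutation p = 0.114, adjusted p = 0.137). It was -1.32 without SMC replicate 4 and -2.77 without SMC replicate 1.

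The ratio of Cd4 to Cd8b1 was 0.0958, 0.0306, 0.215 and 0.183 in pericytes and 0.243, 0.392, 2.67 and 7.75 in SMCs. The groups did not overlap, with the highest pericyte library just under the lowest SMC library. The log2 difference was -3.55 (11.7-fold higher in SMCs, exact permutation p = 0.0286, adjusted p = 0.0571). It was -2.67 without SMC replicate 4 and -4.27 without SMC replicate 1.

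The ratio of Cd8a to Cd8b1, the partners of the CD8 heterodimer, was 0.207, 0.187, 0.287 and 0.235 in pericytes. In SMCs it was 0.502, 0.501, 0.694 and 0.697. Cd8b1 exceeded Cd8a in all 8 libraries, and the ratio was 2.69-fold higher in SMCs (log2 difference -1.43, exact permutation p = 0.0286, adjusted p = 0.0571).

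Within CD3, the ratio of Cd247 to Cd3e was 1.04, 0.956, 0.824 and 0.830 in pericytes and 4.63, 3.45, 5.57 and 2.66 in SMCs. These groups did not overlap, and the ratio was 4.09-fold higher in SMCs (exact permutation p = 0.0286, adjusted p = 0.0571). The reads shared with Pou2f1 bear on this ratio, and their part in it was not tested. The ratio of Cd3d to Cd3e was 1.34 to 2.72 in pericytes and 1.19 to 3.90 in SMCs (log2 difference -0.25, exact permutation p = 0.657), and it changed sign with a pseudocount of 1 and without SMC replicate 1. The ratio of Cd3g to Cd3e was 2.38 to 4.28 in pericytes and 3.70 to 6.69 in SMCs (log2 difference -0.62, exact permutation p = 0.0857, adjusted p = 0.129).

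**Figure D3:**
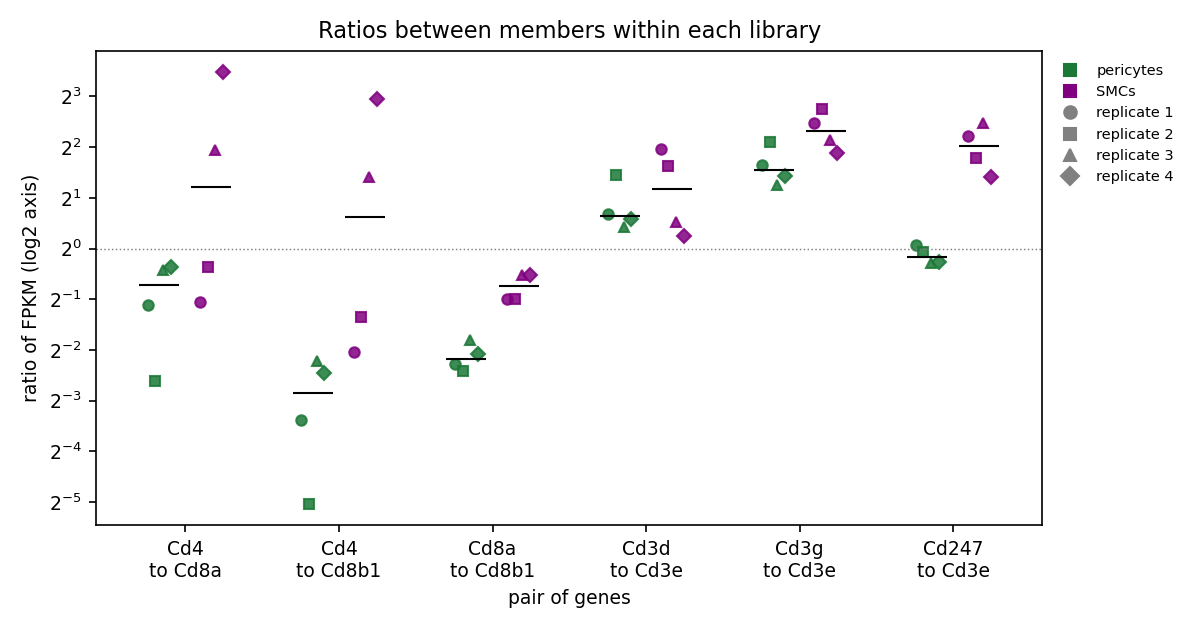
Plain FPKM ratios of 6 pairs of genes in each library on a log2 axis, with a symbol for each replicate and the group median of the plain ratios as a line. Cd4 to Cd8b1, Cd8a to Cd8b1 and Cd247 to Cd3e form separate groups, and Cd4 to Cd8a overlaps, with SMC replicate 4 at 11.1.

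Fragment numbers behind the values could be recovered for the 3 members with a single annotated transcript, since FPKM rise in steps of 1 fragment. In SMCs, Cd3e rested on 25, 41, 40 and 89 fragments, and the 25 fragments of replicate 1 have a 95% exact Poisson interval of 16.2 to 36.9. Cd3d rested on 52 to 115 fragments and Cd8b1 on 56 to 80 fragments in SMCs. In pericytes these genes rested on about 3399 (Cd3e) to 10279 (Cd3d) fragments. Amplified fragments without molecular identifiers are not independent molecules, so the interval covers counting error only. The libraries were of like depth, and the scaling of FPKM corresponded to between 21700000 and 26500000 fragments per library.

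Pericyte replicate 2 was the highest pericyte library for Cd3g, Cd3d, Cd8b1, Cd247 and Cd8a and the lowest for Cd4. Its FPKM summed to 1190435, against 690247 to 782014 in the other 3 pericyte libraries. In that library, 2835 genes with a longest transcript of at most 1500 bases were above their group mean by a median of 0.62 on the log2 scale, and 6367 genes of at least 3000 bases were below it by a median of -0.27. The other 3 pericyte libraries had medians of -0.13 to -0.30 for the short genes. Cd3g, Cd3d, Cd8b1 and Cd3e have longest transcripts of 1023, 1323, 1418 and 1436 bases, and of these Cd3e was not highest in replicate 2 (164 FPKM, against 166 FPKM in replicate 3). Cd247, Cd4 and Cd8a have longer ones, of 2713, 3108 and 3130 bases, and of these only Cd4 was low in replicate 2. The part of transcript length in the spread of these genes was not tested. With values adjusted for it, an alternative added after seeing the data, Cd4 had a log2 fold change of 2.71 (SE 0.757, limma q = 0.0145) and was called. The filter at 1 FPKM in 4 libraries, without that adjustment, had an SE of 0.765 and also called it (limma q = 0.0178). The SE in the main fit was 0.876, and what moved the call was not tested.

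Across the 8 libraries, the log2 values of the 6 genes other than Cd4 went together (Pearson r from 0.984 to 0.998), a value that pools both populations. Cd4 had r of 0.70 (Cd3d) to 0.79 (Cd247) with them. For deviations from the group means, r between pairs of these 6 genes ran from 0.01 (Cd3d and Cd247) to 0.75 (Cd3d and Cd3g). It was 0.04 between Cd3e and Cd8b1 and 0.27 between Cd3d and Cd3e, so not all pairs went together within the populations. With Cd4, r ran from -0.45 (Cd3d) to 0.71 (Cd3e). These are descriptions over 8 libraries that share depth and preparation.

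The genes that work with these members were counted next, beside the 3.24% of all genes tested that were called higher in pericytes. The α and β receptor constant genes Trac, Trbc1 and Trbc2 were called higher in pericytes, with log2 fold changes of 5.87, 6.03 and 6.37. Their means were 1150, 524 and 1228 FPKM in pericytes and 18.2, 6.92 and 13.5 FPKM in SMCs. Of 25 genes of proximal T cell receptor signalling, 23 were called higher in pericytes and none higher in SMCs, with a median log2 fold change of 4.24, against 0.02 over all genes tested. Lck, the kinase that the coreceptors bring in, had 433 ± 61.5 against 7.59 ± 1.66 FPKM (SD, n = 4 each). Zap70, the kinase that binds phosphorylated ITAMs, had 60.6 ± 9.55 against 1.32 ± 0.587 FPKM, and Lat, the membrane scaffold that it phosphorylates, had 290 ± 98.7 against 4.44 ± 1.44 FPKM (SD, n = 4 each). Prkcq, a protein kinase C, had the highest SMC mean of the list (57.3 against 9.15 FPKM) and was called. Fyn, a kinase of many cell types, and Plcg1, a phospholipase, had log2 fold changes of 1.48 and 0.52 and were not called.

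**Figure D4:**
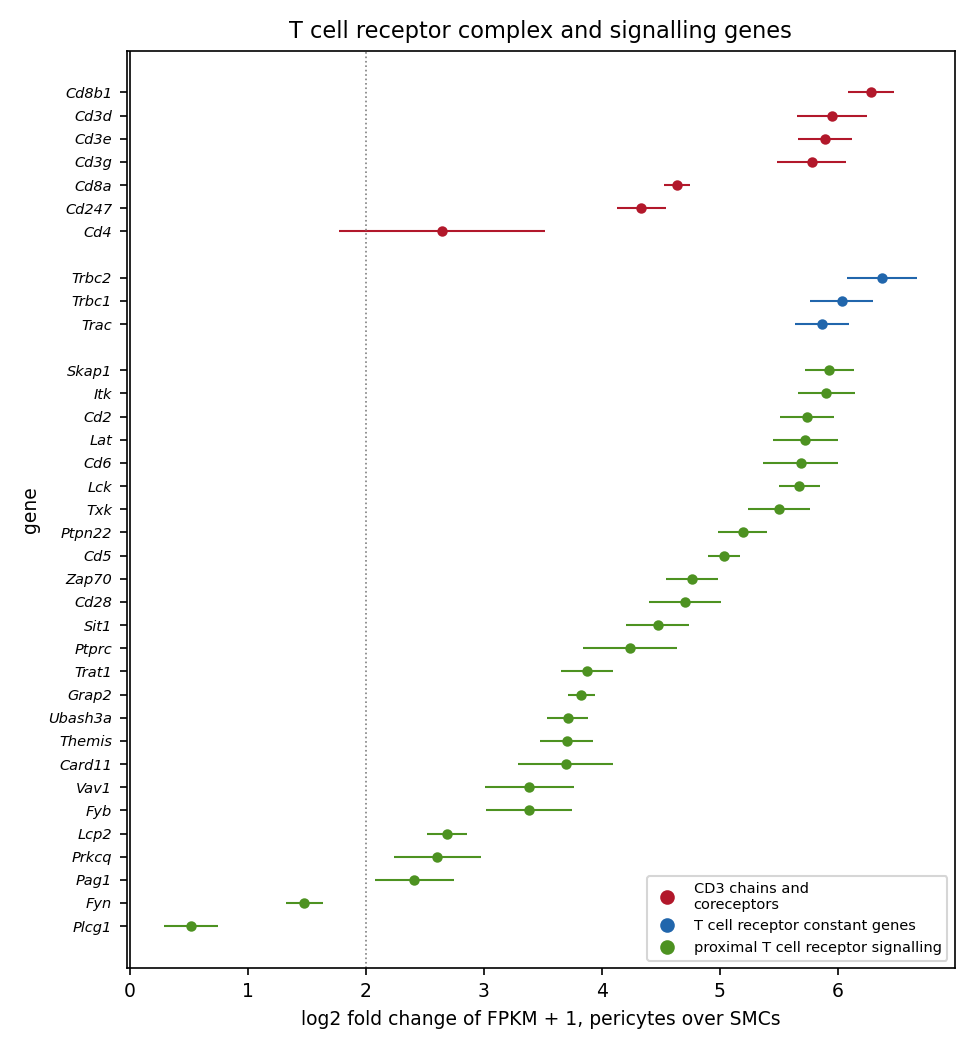
Log2 fold change of FPKM + 1 (pericytes over SMCs) with its standard error for the CD3 and coreceptor genes, the T cell receptor constant genes and 25 genes of proximal receptor signalling. The dotted line is the fold threshold of 2, and Cd4 has the widest standard error (0.88).

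Genes that mark the lineages which the coreceptors separate were also counted, against the same 3.24% of all genes tested. Of 10 genes of the CD4 helper lineage, 7 were called higher in pericytes (median log2 fold change 2.81), among them Tnfrsf4 (70.5 against 7.66 FPKM) and Icos (188 against 5.98 FPKM), costimulatory receptors, and Cd40lg (23.3 against 0.395 FPKM), the ligand for help to B cells. Zbtb7b, the factor that sets the helper lineage, had 1.73 against 0.882 FPKM, and Foxp3, the factor of regulatory T cells, 3.71 against 0.167 FPKM. Neither was called, although both had a limma q below 0.05 (0.0467 and 0.0209). Their log2 fold changes of 0.53 and 1.81 missed the fold threshold, on a scale that understates changes of low genes. Of 10 genes of the CD8 cytotoxic lineage, 9 were called higher in pericytes (median 3.63), among them Ccl5 (1750.0 against 61.7 FPKM), a chemokine, Runx3 (16.5 against 0.641 FPKM), the factor of that lineage, and Prf1 (27.1 against 0.209 FPKM), perforin. Cd8a and Cd8b1 exceeded Cd4 in pericytes in the same libraries, and no test compared the 2 lists.

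T cells are not the only cells with parts of this machinery, so other lists were read beside the members. Over all genes tested, 3.24% were called higher in pericytes. Of 10 NK cell genes, 9 were called higher in pericytes, and their sum was 387 to 762 FPKM in pericytes and 43.5 to 59.1 FPKM in SMCs. Ncr1, the defining receptor of these cells, had 12.1 ± 2.51 against 0.237 ± 0.178 FPKM (SD, n = 4 each). Gzma, granzyme A, had the highest pericyte mean of the list (182 against 2.78 FPKM), and Fcgr3, an Fc receptor, the highest SMC mean (22.98 against 37.1 FPKM, not called). Among 5 other ITAM adaptors and partners, Hcst, Cd79a and Cd79b were called higher in pericytes, and Tyrobp and Fcer1g, adaptors of myeloid and NK cells, had log2 fold changes of 1.99 and 1.24 and were not called. Of 10 B cell markers, 8 were called higher in pericytes, with a sum of 963 to 2195 FPKM in pericytes and 71.8 to 105.6 FPKM in SMCs. Ebf1, the B cell list gene with the highest SMC mean, had 49.0 against 58.0 FPKM and was not called. Of 7 thymocyte genes, Dntt and Ctse were called higher in pericytes, Cd1d1 had the highest mean (26.7 against 9.81 FPKM, not called), Rag1 and Rag2 had means under 1 FPKM in both populations, and Ptcra, the α chain of the pre-T cell receptor, was listed at 0 in all 8 libraries. Ptprc, the gene of the CD45 antigen used in the sort, had 202, 80.6, 230 and 189 FPKM in pericytes and 4.34, 9.15, 7.26 and 11.9 FPKM in SMCs. The part of these cell types in the CD3 and CD8 values was not tested.

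The labels of the populations were checked against marker lists. None of the 8 pericyte markers and none of the 8 SMC markers was called in either direction, and both lists had a median log2 fold change of about -1.3 (-1.32 and -1.31), higher in SMCs. The pericyte markers summed to 37.8, 39.7, 67.3 and 100.6 FPKM in pericytes, below their SMC sums above except that pericyte replicate 4 exceeded SMC replicates 1 and 2. Endothelial markers were called higher in SMCs for 5 of 8 genes (highest mean Pecam1) and fibroblast markers for 6 of 8 (highest mean Lum), against 2.66% of all genes tested. Dcn was the only fibroblast gene called higher in pericytes. That call rests on values listed at 0 in all 4 SMC libraries, where Lum had 1131 to 1971 FPKM.

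None of the nearest annotated genes outside these loci was called in either direction. Ube4a, a ubiquitin ligase gene 3971 bases beyond Cd3g, had a log2 fold change of 0.18 (limma q = 0.672). Mpzl2, an adhesion gene 32834 bases beyond Cd3e, had -1.58 (limma q = 0.0131) and was not called. Beside Cd4, Gpr162 had at most 0.217 FPKM in any library, and Lag3, which encodes an MHC class II receptor of activated T cells, had 0.82 (limma q = 0.143). Beside the CD8 pair, Smyd1, a muscle gene 602 bases from Cd8b1, had at most 0.343 FPKM, and Rmnd5a had 0.53 (limma q = 0.421). Creg1, before Cd247, had -0.30 (limma q = 0.505), and the lincRNA Gm17444 after it had at most 0.475 FPKM.

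Among 13605 genes that averaged 1 FPKM or more, the pattern over the 8 libraries most like the mean of the 4 CD3 genes was that of Cd53, a leukocyte tetraspanin (Pearson r = 0.999). Ramp3, Cd244, Igkv4-63, Arap2, Trbv4, Epsti1 and Trav13-1 followed, each with r of 0.998. Closest to Cd8a were Grap2, Gpr171, Trav14-2, Epsti1 and Tcf7, and closest to Cd8b1 were AI467606, Gpr171, Dcn, Trav8d-2 and Arpc1b (r of 0.998 or more). Dcn and Trav8d-2 were listed at 0 in all SMC libraries. Among those closest to Cd4 were Trpv2 (0.996), Ftsjd2 (0.989), Nub1 (0.987) and Prkcd (0.986), and none of these was among the genes closest to the other members. Trpv2, a cation channel gene, had 4.71 to 25.3 FPKM in SMCs. Each of these 4 genes had its highest SMC value in replicate 4, as Cd4 had, which their choice by likeness to Cd4 favours.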

How the data were processed

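Reads of 8 libraries (4 pericyte, 4 SMC) were made with SMART-Seq v4 and Nextera XT. The authors aligned them with Bowtie2 and TopHat to NCBI Build 37 and deposited FPKM per gene. The program that computed FPKM and the use of strand are not given in the sources used here. Unused sample columns numbered 0. Values were taken as log2(FPKM + 1), which understates changes of low genes, and fitted with limma 3.58.1 (R 4.3.3) over the 27414 genes above 0 in at least 1 library, with Benjamini-Hochberg adjustment. On data simulated with normal noise from the means and spreads of this comparison, 192 of 200 genes shifted by 4 log2 units were called. There were 0 false calls among the other 27214 genes. The shifted genes were drawn from those with a mean log2(FPKM + 1) above 4, so the recovery does not cover lower genes or smaller changes. The 95% interval of Cd4 came from the same fit. Ratios were tested with scipy 1.17.1 in Python 3.11.15 (pandas 2.3.3, numpy 2.4.6), and matplotlib 3.10.9 drew the figures. A value counted as a whole number of fragments within 0.05, which 97.1% to 98.2% of low values of single-transcript genes met.

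The members and gene lists were chosen with earlier results of these data known. Named genes were all members, called and highest genes of each list, the nearest gene on each side, and the genes with the highest correlation to the CD3 mean (8) and to each coreceptor (5), of which 1 is not reported here. List genes named though neither called nor highest (such as Csf1r, Batf3, Fyn, Plcg1, Zbtb7b, Foxp3, Fcer1g, Rag1, Rag2 and Ptcra) were chosen after their values were seen. Of 8 receptor constant genes, 3 were in the table. Since replicates combine several sorts and nothing says that libraries share no animals, p-values measure the spread between these libraries. Alternatives were pseudocounts (0.1 for levels, 0.01 and 1 for ratios), limma treat, an intensity trend in limma, 3 rescalings (median ratio, TPM, quantile), a filter at 1 FPKM in 4 libraries, no filter, a covariate for replicates 1 and 2 against the others, the replicate block, and each library left out. Plain ratios, other pseudocounts for Cd4 over both CD8 genes, replicates 1 and 2 or 3 and 4 alone, and adjustment for transcript length were chosen after seeing the data.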

Additional observations from a re-analysis of the deposited data

Results flagged for a closer look

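Cd3g in pericytes had a library far from the others. On the log2(FPKM + 1) scale, the gap from replicate 2 (701 FPKM) to the next library was 0.907 of the whole range of the 4 pericyte libraries, above Dixon's 95% critical value for 4 values. In all, 26 groups of 4 libraries were examined, and chance flags about 1 in 20. Replicate 2 is also the pericyte library in which genes with short transcripts were high. Cd8a and Cd247, with longer transcripts, were also highest there, and the part of this in the Cd3g value was not tested.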

How the results depend on the processing

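The 6 members other than Cd4 kept their direction and call in 21 of 21 alternatives, with q up to 0.0203. Cd4 (2.65, q = 0.0747) kept its direction and was called in 6 of 21, with q over all of them from 0.0106 to 1. It was called with a filter at 1 FPKM in 4 libraries (2.65, q = 0.0178), with replicates 1 and 2 against 3 and 4 as a covariate (2.65, q = 0.0106), in replicates 1 and 2 only (3.37), adjusted for transcript length (2.71) and without SMC replicate 4 (3.39, which made 7 members called). With the replicate block, Cd4 had 2.65 (q = 0.0317). The cause of these changes was not tested. The block gave 881 genes higher in pericytes and 739 higher in SMCs, against 888 and 728, and moved pericyte markers called higher in SMCs from 0 to 1. It was not used in the main fit, since same-numbered libraries are not said to share animals, their deviations correlated by 0.0794 to 0.474 over 4 pairs (mean 0.327), and 5 of 8 libraries correlated best with their own number. For the ratios, the exact sign-flip test of the block cannot go below p = 0.125.

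Limma treat, which puts the fold threshold inside the test, called 336 genes higher in pericytes and 32 higher in SMCs. A pseudocount of 0.1 called 1328 genes higher in pericytes and 1421 higher in SMCs, the latter including 2 macrophage and 8 endothelial markers (1 and 5 with a pseudocount of 1). Those higher in pericytes included 8 CD4 helper lineage genes, 10 CD8 cytotoxic lineage genes and 9 B cell markers (7, 9 and 8 with a pseudocount of 1). Scaling moved the median of all genes by at most 0.025. TPM scaling called 822 genes higher in pericytes and 1019 higher in SMCs, against 888 and 728 in the main fit, so the larger side changed. Quantile normalization gave 843 and 809, and median-ratio scaling 884 and 715. The ratio of Cd3d to Cd3e reversed with a pseudocount of 1 (0.061) and without SMC replicate 1 (0.015). Cd4 over the sum of both CD8 genes had a log2 difference of -3.19 with FPKM + 0.1 and -3.43 with FPKM + 1 (adjusted exact permutation p = 0.0429 in both), and the 3 other ratios at the smallest p then passed too. Without a pseudocount or with 0.01 it had -3.14 (adjusted exact permutation p = 0.0686) and none of the 6 passed.

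With each library left out, genes higher in pericytes numbered 845 to 885 and higher in SMCs 607 to 774. Log2 fold changes were 5.68 to 6.09 for Cd3d, 5.75 to 6.10 for Cd3e, 5.56 to 5.94 for Cd3g, 4.19 to 4.46 for Cd247, 2.16 to 3.39 for Cd4, 4.57 to 4.72 for Cd8a and 6.11 to 6.43 for Cd8b1. Log2 ratio differences were -2.77 to -1.32 for Cd4 to Cd8a, -4.27 to -2.67 for Cd4 to Cd8b1, -1.54 to -1.33 for Cd8a to Cd8b1, -0.52 to 0.01 for Cd3d to Cd3e, -0.79 to -0.48 for Cd3g to Cd3e and -2.20 to -1.86 for Cd247 to Cd3e. With 3 libraries against 4, the exact permutation test of a ratio cannot go below p = 0.0571. Fragment numbers were recovered for 3 members, so counting error is not given for Cd3g, Cd247, Cd4 and Cd8a.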
